A study of Mus musculus with 16 samples.

Results

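High-fat feeding was compared with low-fat feeding in preadipocytes, the stromal cells of fat tissue that can become adipocytes, across all genes. The comparison uses 10 of the 16 libraries in the study, chosen by their diet and fraction codes: 8 preadipocyte libraries on the high-fat diet and 2 on the low-fat diet. All came from gonadal white fat of female C57BL/6 mice, and the sources used here give no age. The control high-fat group holds 4 libraries and the control low-fat group 1, from pups left undisturbed and weaned on postnatal day 21. The stress high-fat group holds 4 libraries and the stress low-fat group 1, from pups that were taken from the dam daily between postnatal days 2 and 16 and weaned on day 17. Tissue was digested with collagenase, the floating adipocytes were parted from the stromal vascular fraction, and adipocyte lineage cells were enriched with magnetic beads. The sources used here do not give the antibodies of that sort, the fat content of the diets or the time on them. Nor do the labels say whether each library is a separate mouse, so the p-values speak of the spread among these libraries, and that spread may be technical.

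Preadipocytes lie in the stroma beside blood vessels, mesothelium and immune cells. Early progenitors carry the surface protein DPP4, and their committed descendants express ICAM1 and the adipogenic regulator PPARgamma. Wnt ligands and several transcription factors hold progenitors back from differentiating. When fat expands on a rich diet, macrophages gather in the tissue, take up lipid and turn on a programme with TREM2, CD9 and lysosomal genes, and are then called lipid-associated macrophages.

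Library totals ran from 18881763 to 23368821 counts. Levels are given in CPM, counts scaled to a fixed library size with TMM factors, and differences as log2 fold changes, positive where the high-fat libraries were higher, with the standard error of the fit after ±. The progenitor markers Pdgfra, Cd34 and Ly6a were at 344.7 CPM or more in all 10 libraries. Control high-fat libraries 1 and 3 differed at 21.4% of genes beyond counting error, against 50.5 to 72.2% in the other 11 within-group pairs. Every mean ± SD takes these 2 libraries as 1, so n = 7 on the high-fat diet. The fits, with their errors and p-values, and the counts of non-overlapping genes take them as 2. A fit with the pair summed is given at the end. The 2 low-fat libraries, of different early life treatments, differed at 48.5% of genes, fewer than in any of those 11 pairs. Whether both were handled together the sources used here do not state. Stress high-fat libraries 3 and 4 stood apart on the first principal component, which held 28.0% of the variance, and had the highest macrophage scores. Control high-fat libraries 1 and 3 lay at its other end, also away from the rest. A score is the mean log2 CPM over a list. Values for the control and the stress arm are diet differences within each early life treatment, taken from an interaction fit of all 10 libraries, so their errors rest on 1 shared estimate of spread.

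No gene passed the adjustment over the 20217 genes tested. The edgeR quasi-likelihood test called 0 genes (0% called), with a smallest adjusted p of 0.0653. At an unadjusted p below 0.05 stood 3063 genes, 15.2% of those tested, of which 1649 (8.16%) were higher and 1414 (6.99%) lower on the high-fat diet. Both low-fat libraries lay below all 8 high-fat libraries in 1472 genes (7.28%) and above all 8 in 1589 (7.86%). DESeq2 called 611 of 17259 genes (3.54%), 391 higher (2.27%) and 220 lower (1.27%), and limma on FPKM called 15. Without control high-fat library 4 edgeR called 62 genes, among them 13 of the 20 with the smallest p named below, including Mmp12, Slc6a2 and Txnip. Without control library 2, and without stress library 2, it called Mmp12 and Slc6a2 only. The differences below are therefore given as values that did not pass the main test, beside these backgrounds. These shares of all genes are the background for every count of list members below.

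**Figure D1:**
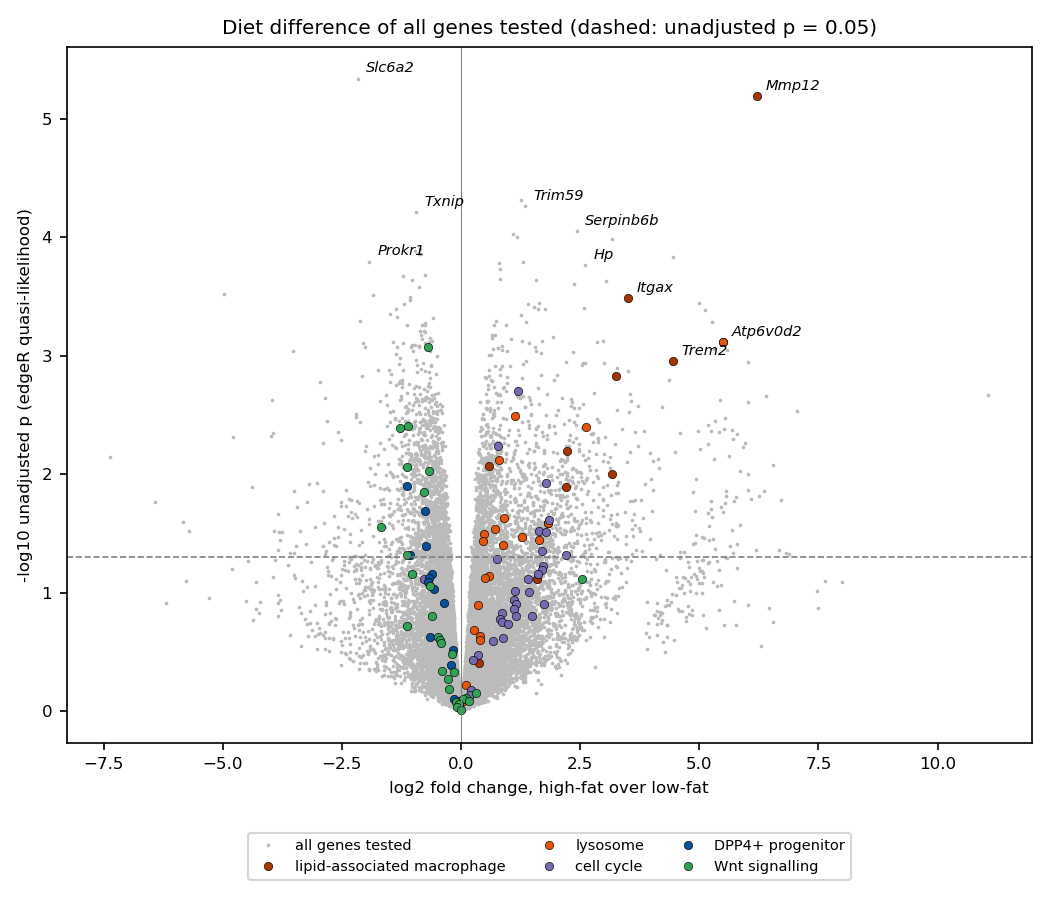
Each point is 1 of 20217 genes, with its log2 fold change (high-fat over low-fat) on the x axis and the -log10 of its unadjusted p from the edgeR quasi-likelihood test on the y axis. Colours mark 5 gene lists, and the dashed line is an unadjusted p of 0.05. Slc6a2 on the left and Mmp12 on the right stand highest, and the members of the lipid-associated macrophage list all lie right of 0.

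The largest separation between diets was in genes of lipid-associated macrophages. Mmp12 (ENSMUSG00000049723, GRCm38 chromosome 9, 7344381 to 7369499) encodes macrophage elastase, which cleaves elastin in the matrix. It was at 2.02 CPM in the control and 2.89 CPM in the stress low-fat library. In the 8 high-fat libraries the lowest level was 66.6, the median 154.8 and the highest 387 CPM. The diets were far from overlapping, and the mean on the high-fat diet was 193 ± 118 CPM (SD, n = 7). The log2 fold change was 6.21 ± 0.71, a 74.0-fold difference in the fit (adjusted p = 0.0653, not passed). It was 6.02 ± 1.04 in the control arm and 6.40 ± 1.06 in the stress arm, and 5.75 without stress libraries 3 and 4, where the gene was called.

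Trem2 encodes the lipid-sensing receptor that gives these macrophages their name in some studies. Its low-fat levels were 3.56 and 4.0 CPM, and its high-fat levels had a lowest value of 24.1, a median of 57.2 and a highest of 270.6 CPM. The difference was 4.44 ± 0.97 (adjusted p = 0.197). Itgax, the integrin chain CD11c, stood at 6.87 and 7.19 CPM on the low-fat diet and at 33.1 to 162.6 CPM, median 73.6, on the high-fat diet (3.51 ± 0.65, adjusted p = 0.185). Atp6v0d2, a subunit of the proton pump that acidifies lysosomes, was at 1.42 and 2.79 CPM against 21.4 to 315 CPM, median 49.5. Lgals3, the lectin galectin-3, was at 55.6 and 63.5 CPM against 235 to 1272 CPM, median 444.6. Gpnmb, a glycoprotein of lysosome-rich macrophages, was at 110.0 and 110.5 CPM against 200.5 to 1581 CPM, median 365. Spp1, the secreted phosphoprotein osteopontin, was at 2.10 and 2.94 CPM against 8.26 to 97.5 CPM, median 13.6. In each of these 6 genes both low-fat libraries were below every high-fat library, and the highest high-fat values came from stress libraries 3 and 4.

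Of the 12 genes on the lipid-associated macrophage list, 12 had a positive log2 fold change, as 53.4% of all genes did, and 11 had both low-fat libraries below all high-fat libraries, where 7.28% of all genes did. The exception was Lpl, lipoprotein lipase, named here after its values were seen, at 2150 and 1666 CPM against 1341 to 4869 CPM. The median log2 fold change was 2.70, against 0.04 over all genes tested. It was 2.48 in the control arm, 3.37 in the stress arm and 1.86 without stress libraries 3 and 4. At an unadjusted p below 0.05 stood 10 of the 12, and DESeq2 called 9 of them higher. The list, like the others, was chosen with earlier results of these data known, so its counts are not independent of those results. The list's score was 4.73 and 4.96 in the low-fat libraries and 6.50 to 9.03 in the high-fat libraries, with no overlap.

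Markers of macrophages in general overlapped between diets. Of 18 such genes 15 were positive, with a median of 1.22 that was 0.58 without stress libraries 3 and 4. Both low-fat libraries lay below all high-fat libraries in 2 of them, Tyrobp, a signalling adaptor (25.3 and 30.2 CPM against 37.7 to 233 CPM), and Cd68, a lysosomal glycoprotein (52.7 and 66.2 CPM against 78.7 to 644 CPM). DESeq2 called these 2. Over all genes tested 7.28% had both low-fat libraries below all high-fat libraries. Adgre1, the antigen F4/80, was at 61.9 and 92.7 CPM against 78.7 to 911 CPM, and the lysozyme gene Lyz2 at 400.2 and 497 CPM against 463 to 2291 CPM. The 3 genes with negative values, named after their values were seen, were Cd163 (-0.33 ± 0.61), Timd4 (-0.33 ± 0.79) and Lyve1 (-0.09 ± 0.73). Each was within its error and overlapped between diets. Macrophage scores were 5.75 and 6.10 on the low-fat diet and 4.97 to 7.78 on the high-fat diet. In this bulk material fewer or more cells of a type and less or more RNA per cell cannot be told apart.

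The lipid-associated genes were also set against the macrophage list and 1 of its members within each library. These differences reuse the scores and levels above, so they are not separate evidence, and macrophage content itself was not measured. The lipid-associated score minus the macrophage score was -1.02 and -1.15 in the low-fat libraries and 0.09 to 2.00 in the high-fat libraries, so the diets did not overlap. Csf1r, the receptor for macrophage colony-stimulating factor, chosen as a reference after its values were seen, was at 210.0 and 308 CPM on the low-fat diet and at 107 to 864 CPM on the high-fat diet. The log2 difference of Mmp12 and Csf1r was -6.64 and -6.69 in the low-fat libraries and ran from -1.76 to -0.02 in the high-fat libraries. For Trem2 and Csf1r it was -5.84 and -6.23 against -3.20 to -1.42. For Itgax and Csf1r it was -4.92 and -5.40 against -3.05 to -1.56. The diets were closest for Gpnmb and Csf1r, at -0.93 and -1.48 against -0.63 to 1.87. Stress high-fat library 2, with the lowest macrophage score of all 10 libraries, had the greatest difference between both scores. A low macrophage score raises this difference by construction. The library's lipid-associated score, 6.97, lay within the high-fat range of 6.50 to 9.03.

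**Figure D2:**
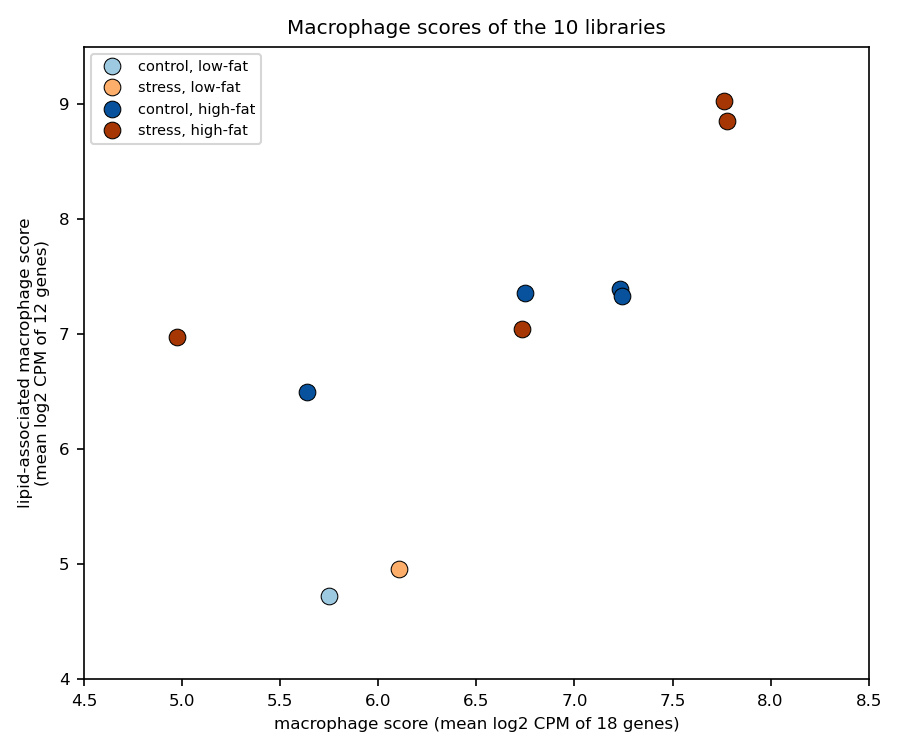
Each point is a library, with its macrophage score (mean log2 CPM of 18 genes) on the x axis and its lipid-associated macrophage score (mean log2 CPM of 12 genes) on the y axis, coloured by group. The 2 low-fat libraries lie at 4.73 and 4.96 on the y axis, below all 8 high-fat libraries, while on the x axis 2 high-fat libraries lie to their left.

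Genes of the lysosome, which degrades engulfed lipid and protein, were higher along with these. All 20 measured members were positive, with a median of 0.65 (0.40 in the control and 1.07 in the stress arm). Both low-fat libraries lay below all high-fat libraries in 15, against 7.28% of all genes. At an unadjusted p below 0.05 stood 12, where 8.16% of all genes were higher. The scores were 6.92 and 6.95 on the low-fat diet and 7.46 to 8.72 on the high-fat diet. Ctss, a cysteine protease of antigen-presenting cells, was at 61.7 and 79.2 CPM against 153 to 932 CPM, median 385. Atp6v1a, a catalytic subunit of the proton pump, was at 94.8 and 99.4 CPM against 154.4 to 357 CPM, median 191. Ctsd, an aspartic protease that is also on the lipid-associated macrophage list, was at 221 and 229 CPM against 347 to 2210 CPM, median 617. The protease genes Ctsk (0.81 ± 0.24) and Ctsz (0.90 ± 0.34) did not overlap between diets either, and Ctsk was at 1.30 without the control and 0.40 without the stress low-fat library. DESeq2 called Atp6v0d2, Atp6v1a, Ctss and Ctsd. The highest lysosome scores were again in stress libraries 3 and 4, and the part of macrophage content in this group was not tested.

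Promoters of these genes are shown because the members of both lists were higher together. Each is the 250 bases before a RefSeq start on GRCm38.p6, read in the direction of the gene. Capitals mark TGANTCA, which takes in the AP-1 site, in the first 3 and TCACGTG, an E-box bound by TFEB family factors, in the last 2.
Mmp12, chr9:7347124-7347373 on the plus strand: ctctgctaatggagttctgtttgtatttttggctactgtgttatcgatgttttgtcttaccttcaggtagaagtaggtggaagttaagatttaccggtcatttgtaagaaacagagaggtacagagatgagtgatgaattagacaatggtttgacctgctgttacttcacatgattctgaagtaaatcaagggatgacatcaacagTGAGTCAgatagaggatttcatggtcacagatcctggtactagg
Itgax, chr7:128129300-128129549 on the plus strand: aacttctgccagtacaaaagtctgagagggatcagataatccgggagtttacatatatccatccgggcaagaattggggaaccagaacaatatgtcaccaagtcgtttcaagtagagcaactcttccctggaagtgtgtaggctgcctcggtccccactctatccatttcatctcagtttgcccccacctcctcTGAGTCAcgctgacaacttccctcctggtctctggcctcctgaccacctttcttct
Trem2, chr17:48346151-48346400 on the plus strand: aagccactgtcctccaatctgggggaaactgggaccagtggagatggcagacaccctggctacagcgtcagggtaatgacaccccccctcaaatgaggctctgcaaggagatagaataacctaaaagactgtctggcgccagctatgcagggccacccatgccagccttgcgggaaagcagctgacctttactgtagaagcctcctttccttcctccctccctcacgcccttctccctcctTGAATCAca
Ctsd, chr7:142387828-142388077 on the minus strand: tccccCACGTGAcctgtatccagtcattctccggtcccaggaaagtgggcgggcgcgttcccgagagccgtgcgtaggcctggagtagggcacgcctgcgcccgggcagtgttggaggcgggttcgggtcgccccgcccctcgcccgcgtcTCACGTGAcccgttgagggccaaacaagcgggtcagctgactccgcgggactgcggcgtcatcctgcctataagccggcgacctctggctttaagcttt
Atp6v1a, chr16:44139260-44139509 on the minus strand: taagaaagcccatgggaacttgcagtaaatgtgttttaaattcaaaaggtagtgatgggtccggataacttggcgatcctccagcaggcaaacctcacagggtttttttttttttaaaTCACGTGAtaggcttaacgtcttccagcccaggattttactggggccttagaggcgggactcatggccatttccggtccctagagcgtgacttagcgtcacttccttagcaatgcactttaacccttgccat

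Both strands were searched. TGANTCA was found in 7.82% of the 27025 genes in the RefSeq promoter table. Of the lipid-associated macrophage list 9 genes were in that table, and 3 held a match: Itgax, Trem2 and Mmp12. In Mmp12 the match began 44 bases and in Itgax 56 bases before the start, and in Trem2 9 bases before it, where it read TGAATCA, with a middle base that the AP-1 site does not have. Mmp12 has 2 RefSeq starts, and the window printed is that of the inner start, 2993 bases into the deposited gene, since the window before the outer start held no match. TCACGTG was found in 3.58% of all genes and in 5 of the 14 lysosomal genes in the table, Ctsd, Lamp1, Gla, Atp6v1a and Mcoln1. A match describes the letters in the window and is not shown to be a site of binding.

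Cell cycle genes were higher on the high-fat diet in 31 of 33 cases, with a median of 1.14. Both low-fat libraries were below all high-fat libraries in 10 members, against 7.28% of all genes. At an unadjusted p below 0.05 stood 8 members, where 8.16% of all genes were higher. Mki67, the nuclear marker of dividing cells, was at 25.8 and 17.5 CPM on the low-fat diet and at 30.0 to 172 CPM, median 53.1, on the high-fat diet (1.64 ± 0.65, adjusted p = 0.286; 1.05 without the stress low-fat library). Ccne1, a cyclin of the entry into S phase, was at 3.39 and 2.28 CPM against 4.73 to 7.99 CPM. Ccnb2, a mitotic cyclin, was at 3.35 and 2.13 CPM against 5.87 to 23.3 CPM. Pcna, the clamp of the replication machinery, was at 106 and 75.0 CPM against 116 to 194 CPM, and Birc5, survivin, at 2.02 and 1.77 CPM against 3.38 to 19.2 CPM. None of these overlapped between diets. DESeq2 called 2 members, Ccne1 and Ccnb2. The cell cycle score was 2.84 and 2.6 on the low-fat diet, 2.90 to 3.75 in 6 of the high-fat libraries, and highest, at 4.65 and 4.79, in stress libraries 3 and 4. Without those 2 libraries the median was 0.53, and which cells divided was not tested.

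The genes of cholesterol synthesis, its feedback regulators and its exporters were positive in 21 of 25 cases, with a median of 0.50 that was 0.31 without control libraries 1 and 3. The list's scores overlapped between diets (3.84 and 4.22 against 4.09 to 4.89). Hmgcs1, an early enzyme of the pathway, was at 51.3 and 63.2 CPM on the low-fat diet and at 72.3 to 105.0 CPM on the high-fat diet, with no overlap (0.55 ± 0.14). Insig1, which holds the sterol sensor in the endoplasmic reticulum, was at 80.5 and 77.6 CPM against 96.2 to 151 CPM. Cyp51, a sterol demethylase, was at 26.0 and 32.7 CPM against 33.3 to 82.1 CPM. Abcg1, the exporter of cholesterol from macrophages, was at 7.77 and 12.1 CPM against 18.7 to 145.5 CPM, with its highest values in stress libraries 3 and 4. In all, 9 members stood at an unadjusted p below 0.05, where 8.16% of all genes were higher. Both low-fat libraries lay below all high-fat libraries in 6, against 7.28% of all genes. DESeq2 called each of the 4 genes named.

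The Hmgcs1 promoter is printed because it was the only one of 16 cholesterol genes in the promoter table with the letters TCACNCCAC, a sterol regulatory element, which 1.22% of all genes held. Capitals mark the match, 137 bases before the start.
Hmgcs1, chr13:119690101-119690350 on the plus strand: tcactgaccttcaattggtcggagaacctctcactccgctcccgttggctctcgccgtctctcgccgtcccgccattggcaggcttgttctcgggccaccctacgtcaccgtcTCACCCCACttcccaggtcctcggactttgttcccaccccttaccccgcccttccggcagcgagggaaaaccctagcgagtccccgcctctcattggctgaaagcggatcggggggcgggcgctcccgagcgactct

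Glycolysis genes were positive in 17 of 18 cases (median 0.58), and scores did not overlap (6.39 and 6.34 against 6.50 to 7.04). Ldha, lactate dehydrogenase A, was at 261 and 206 CPM on the low-fat diet and at 311 to 499.5 CPM on the high-fat diet (0.75 ± 0.19, adjusted p = 0.207). Gapdh was at 440 and 414.5 CPM against 545 to 777 CPM, and Pgk1, phosphoglycerate kinase, at 68.2 and 64.3 CPM against 82.1 to 135 CPM. Hk1, hexokinase 1, was the member with a negative value (-0.29 ± 0.10, and -0.15 without the stress low-fat library), at 95.9 and 115 CPM against 80.8 to 89.5 CPM. In this list 7 members had both low-fat libraries below all high-fat libraries and 1, Hk1, above, against 7.28% and 7.86% of all genes.

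Txnip, which binds thioredoxin and limits glucose uptake, was among the genes with the smallest p-values in the opposite direction. It was at 527 and 569 CPM on the low-fat diet and at 233 to 360 CPM, median 289, on the high-fat diet, with no overlap (-0.95 ± 0.14, adjusted p = 0.185). Arrdc3, an arrestin of the same family, was at 155 and 145 CPM against 52 to 112 CPM (-1.03 ± 0.18). The Txnip promoter is known for a pair of E-boxes through which glucose acts, and is shown with that pair in capitals. Its letters, CACGNG and CACGNG with 5 bases between them, on either strand, were found in 0.0518% of all genes, 14 of 27025.
Txnip, chr3:96557707-96557956 on the plus strand: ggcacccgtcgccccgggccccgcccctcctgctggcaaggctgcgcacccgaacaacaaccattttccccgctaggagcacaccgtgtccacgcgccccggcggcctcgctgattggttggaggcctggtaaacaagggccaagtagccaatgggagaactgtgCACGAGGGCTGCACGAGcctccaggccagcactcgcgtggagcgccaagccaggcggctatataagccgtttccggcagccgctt

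Inflammatory mediators were positive in 24 of 32 cases, with a median of 0.67 (0.30 in the control and 0.75 in the stress arm). The scores were 5.58 and 5.28 on the low-fat diet against 5.64 to 6.56. In 6 members both low-fat libraries lay below all high-fat libraries, against 7.28% of all genes. Hp, haptoglobin, which binds free haemoglobin, was at 5.84 and 5.32 CPM against 17.7 to 58.5 CPM (2.6 ± 0.45, adjusted p = 0.185). Cxcl2, a chemokine for neutrophils, was at 213 and 205 CPM against 396 to 852 CPM. Il1rn, the interleukin-1 receptor antagonist, was at 6.27 and 9.57 CPM against 24.9 to 173 CPM. Tnf, tumour necrosis factor, was at 26.3 and 38.5 CPM against 51.4 to 137 CPM, and Cx3cl1, fractalkine, at 7.25 and 9.17 CPM against 9.63 to 23.7 CPM. These 5 did not overlap between diets. Ccl2, the monocyte chemokine, and Il6 did overlap (698 and 448 against 302 to 1057 CPM, and 664 and 308 against 158.5 to 604 CPM). Their differences of 0.29 and -0.14 had opposite signs in the control arm (-0.09 and -0.60) and the stress arm (0.75 and 0.44).

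**Figure D3:**
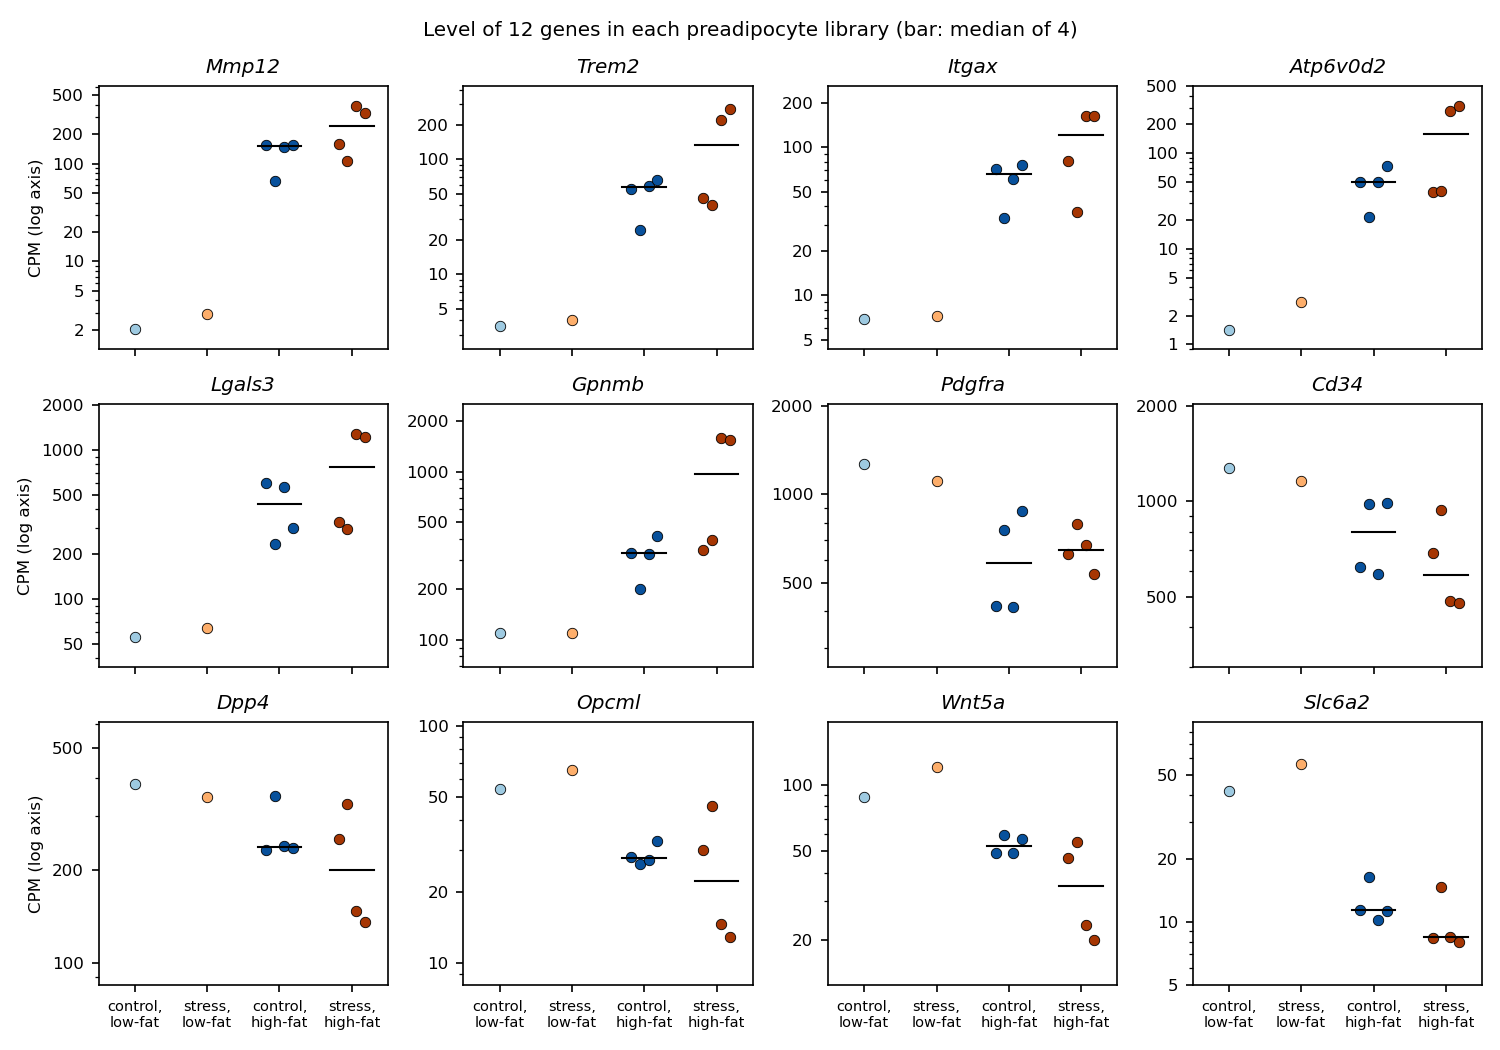
Each panel is a gene, with its level in CPM on a log axis and the 4 groups on the x axis. Points are libraries and bars the median of 4. For the genes Mmp12 to Gpnmb the low-fat points lie below all high-fat points, for Pdgfra, Cd34, Opcml, Wnt5a and Slc6a2 above them, and for Dpp4 a high-fat library reaches the lower low-fat value.

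The progenitor markers Pdgfra, Cd34 and Ebf2 were lower in the high-fat libraries, while the list they belong to overlapped between diets. Pdgfra, the receptor that marks adipocyte progenitors (chromosome 5, 75152292 to 75198215), was at 1273 and 1109 CPM on the low-fat diet. In the high-fat libraries it ran from 413 to 877 CPM with a median of 649, below both low-fat values (-0.91 ± 0.27, adjusted p = 0.218). Cd34, a sialomucin of progenitors, was at 1268 and 1156 CPM against 478 to 988 CPM, median 653 (-0.76 ± 0.28). Ebf2, a transcription factor of committed progenitors, was at 318 and 252 CPM against 109 to 227 CPM (-0.82 ± 0.27). Ly6a, the surface antigen Sca-1, overlapped, at 519 and 452.5 CPM against 345 to 530 CPM. Of 15 markers shared by fibroblastic progenitors 10 were negative, with a median of -0.26, 3 lay above all high-fat libraries in both low-fat libraries and 2 below. Its scores were 9.92 and 9.83 on the low-fat diet and 9.18 to 10.01 on the high-fat diet. Pdgfra differed by -0.90 and Cd34 by -0.63 without stress libraries 3 and 4.

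Of the 14 markers of early DPP4+ progenitors, 14 were negative, where 46.6% of all genes were. Their median was -0.63, which was -0.44 in the control arm, -0.70 in the stress arm and -0.41 without stress libraries 3 and 4. Opcml, a cell adhesion molecule, was at 54.1 and 65.3 CPM on the low-fat diet and at 12.9 to 46.2 CPM, median 27.7, on the high-fat diet (-1.13 ± 0.37, adjusted p = 0.232). Dact2, an inhibitor of Wnt and TGF-beta signals, was at 54.3 and 62.9 CPM against 12.2 to 53.0 CPM. Pi16, a peptidase inhibitor that marks the earliest fibroblasts, was at 1452 and 1398 CPM against 530 to 1555 CPM, and Dpp4 itself at 382 and 347 CPM against 136 to 349 CPM, so these 2 overlapped at the edge. In 4 members both low-fat libraries were above all high-fat libraries, against 7.86% of all genes, and none was called by DESeq2. The scores were 7.61 and 7.58 on the low-fat diet and 6.36 to 7.49 on the high-fat diet, lowest in stress libraries 3 and 4, which had the highest macrophage scores. The part of that macrophage content was not tested.

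Markers of committed preadipocytes did not go one way. Of 13 genes 8 were positive and 5 negative, with a median of 0.14. Icam1 was at 715 and 413 CPM against 316 to 808 CPM (0.09 ± 0.34). Pparg was at 22.9 and 34.3 CPM against 32.2 to 62.9 CPM (0.67 ± 0.34, adjusted p = 0.374; 0.35 without the control and 1.05 without the stress low-fat library), so both genes overlapped between diets.

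Factors that restrain adipogenesis were mostly lower. Of 16 repressors 13 were negative and 6 of these had both low-fat libraries above all high-fat libraries (7.86% of all genes). Of the 3 positive genes 2, Runx1 and Foxc2, had both below (7.28% of all genes). The median was -0.40, which was -0.04 in the control, -0.77 in the stress arm and -0.15 without stress libraries 3 and 4. The list's scores overlapped between diets (5.55 and 5.63 against 4.68 to 5.67). Klf2 was at 325 and 347 CPM against 127 to 223 CPM (-0.97 ± 0.21), and Klf3 at 175 and 197 CPM against 90.2 to 145 CPM. DESeq2 called 4 members lower and 2 higher. Runx1, a factor of blood and stromal lineages, was at 46.6 and 34.4 CPM against 62.4 to 121 CPM (1.26 ± 0.25, adjusted p = 0.185), and Foxc2, a forkhead factor named after its values were seen, differed by 1.40 ± 0.43.

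Wnt signalling genes had 23 of 29 negative values and a median of -0.42, which was -0.25 without stress libraries 3 and 4. The list's scores overlapped between diets (4.71 and 4.80 against 3.56 to 4.82). In 8 members both low-fat libraries lay above all high-fat libraries, against 7.86% of all genes. Among the ligands, Wnt5a was at 87.9 and 120.5 CPM on the low-fat diet and 19.9 to 59.3 CPM, median 49.1, on the high-fat diet (-1.28 ± 0.34, adjusted p = 0.207; -0.72 without the stress low-fat library). Wnt10b, a ligand that blocks adipogenesis, was at 38.1 and 40.6 CPM against 9.95 to 25.9 CPM. Among the receptors, Fzd7 was at 52.8 and 59.7 CPM against 26.6 to 41.3 CPM, and Fzd4 at 156 and 174 CPM against 70.3 to 129 CPM. Nkd2, a feedback inhibitor, was at 9.66 and 12 CPM against 2.48 to 8.09 CPM. DESeq2 called Wnt5a, Wnt10b and Fzd7.

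Slc6a2 (ENSMUSG00000055368, chromosome 8, 92960079 to 93001667), the noradrenaline transporter, had the smallest p of all genes. It was at 42.0 and 56.2 CPM on the low-fat diet and at 7.99 to 16.3 CPM, median 10.7, on the high-fat diet (-2.17 ± 0.25, adjusted p = 0.0653). The values were -1.78 in the control and -2.51 in the stress arm, and -2.04 without stress libraries 3 and 4. Prokr1, a prokineticin receptor, was at 13.0 and 18.2 CPM against 2.17 to 6.57 CPM (-1.92 ± 0.33). Zfp503, a transcriptional repressor, was at 85.9 and 106 CPM against 26.6 to 52.1 CPM, and Smpd3, a neutral sphingomyelinase, at 240.5 and 216.5 CPM against 98.5 to 152.5 CPM. The imprinted non-coding RNA Peg13 (-0.85, and -0.56 without the stress low-fat library), the zinc finger gene Zfp395 (-0.85), Prr12 (-0.88) and the sorting nexin Snx18 (-0.76) completed the 10 lower genes with the smallest p, each with no overlap and an adjusted p of 0.185.

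Among the 10 higher genes with the smallest p were also several outside the macrophage list. Serpinb6b, a protease inhibitor, was at 6.01 and 7.80 CPM against 20.4 to 49.3 CPM (2.43 ± 0.39). Trim59, a ubiquitin ligase, was at 5.11 and 4.20 CPM against 9.96 to 15.5 CPM, and Cks2, a subunit of cyclin-dependent kinases, at 4.85 and 4.05 CPM against 8.73 to 13.5 CPM. Map2k3, a kinase upstream of p38, was at 73.6 and 62.5 CPM against 103 to 163 CPM. Noct, the circadian phosphatase nocturnin, was at 73.2 and 53.1 CPM against 109 to 177 CPM. Prkar2b, a regulatory subunit of protein kinase A (0.82 ± 0.14), and Trp53inp2, an autophagy factor (0.82 ± 0.15), were tightly grouped on the high-fat diet, at 28.3 to 35.0 and 58.3 to 83.8 CPM against 15 and 19.6, and 37.6 and 49.1 CPM.

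Genes of the lipid-filled adipocyte were low in these libraries but mostly higher on the high-fat diet. Of 20 such genes 16 were positive, with a median of 0.51 (0.98 in the control and 0.18 in the stress arm). In 5 both low-fat libraries lay below all high-fat libraries, against 7.28% of all genes. Lep, encoding leptin, was at 2.58 CPM in both low-fat libraries and at 4.76 to 72.7 CPM, median 34.3, on the high-fat diet (3.60 ± 1.25, adjusted p = 0.249). Pnpla2, the adipose triglyceride lipase, was at 41.3 and 46.9 CPM against 54.7 to 87.4 CPM. Gpd1, glycerol-3-phosphate dehydrogenase, was at 4.94 and 8.76 CPM against 9.31 to 28.4 CPM, and Plin1, perilipin 1, at 11.1 and 14.0 CPM against 16.3 to 41.1 CPM. Acsl1, which activates fatty acids, was at 26.3 and 32.6 CPM against 33.1 to 50.1 CPM. Plin4, a droplet coat protein from the list of triglyceride synthesis, was at 11.6 and 15 CPM against 21.4 to 48.9 CPM (1.35 ± 0.34). Adipoq, adiponectin, overlapped, at 5.41 and 11.3 CPM against 1.19 to 49.4 CPM. Without stress libraries 3 and 4, whose levels of 4.73 and 1.19 CPM were the lowest, edgeR called 7 genes, among them Mmp12, Adipoq (2.16) and Plin4 (1.54). The adipocyte scores of stress libraries 3 and 4, 2.15 and 1.76, were below both low-fat scores of 2.63 and 3.19. Whether adipocytes or their RNA were carried into the fraction was not tested.

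Of 16 genes known to follow adiposity in mouse fat 10 were positive and 6 negative, with a median of 0.48. Both low-fat libraries lay below all high-fat libraries in 4, Trp53inp2, Lep, Tph2 and Fgf13, the last 2 named after their values were seen, and above in 1, Osr2. DESeq2 called 4 members higher and 0 lower. Mest, an imprinted gene of expanding fat, was at 39.9 and 42.3 CPM against 8.03 to 47.1 CPM (-0.39 ± 0.50). Npr3, the clearance receptor of natriuretic peptides, and Sfrp5, a secreted Wnt antagonist, overlapped as well (0.84 ± 0.72 and 2.54 ± 1.29). Sfrp5 was at 0.21 and 0.91 CPM against 0.056 to 7.33 CPM, so its difference rests on levels that reach below 3 counts in a library. It was 3.67 ± 2.04 in the control and 1.83 ± 1.72 in the stress arm. Npr3 was at 0.12 without the control and 1.87 without the stress low-fat library, and Mest at -0.62 and -0.14. Osr2, a transcription factor, was at 83.4 and 65.3 CPM against 23.2 to 60.2 CPM (-0.97 ± 0.30).

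Heat shock genes were negative in 13 of 14 cases, with a median of -0.19, and their scores did not overlap (8.53 and 8.33 against 7.51 to 8.24). Hspa1b was at 1039 and 1235 CPM on the low-fat diet and at 254 to 658 CPM on the high-fat diet (-1.33 ± 0.28, adjusted p = 0.185), with its near-identical copy Hspa1a at -1.23 ± 0.32 (-0.78 without the stress low-fat library). Reads may be shared between these copies. The chaperones Dnajb1 (463 and 316 against 153.5 to 304 CPM) and Hsph1 (339 and 339.6 against 76.3 to 218 CPM) did not overlap either. Of 22 immediate early genes 15 were negative and 7 positive, with a median of -0.12, and their scores overlapped (9.46 and 9.28 against 8.83 to 9.51). In 7 of the negative members both low-fat libraries were above all high-fat libraries, against 7.86% of all genes. Among them Jun was at 1710 and 1937 CPM against 678 to 1268 CPM, and Fos at 2534 and 2796 CPM against 916 to 1850 CPM. Socs3 was at 1769 and 1204 CPM against 456 to 1201 CPM, and Zfp36 at 2120 and 2273 CPM against 1035 to 1740 CPM. Genes of both lists are known to respond to tissue digestion, whose timing the sources used here do not state. Handling and diet cannot be told apart for them. With 1 low-fat library per early life treatment, the same holds for every other gene here.

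The fibrillar and basement membrane collagens had 10 positive and 8 negative values with a median of 0.08, which was -0.10 without stress libraries 3 and 4 and 0.28 without control libraries 1 and 3. Col1a1 was at 4118 and 4505 CPM against 2221 to 7243 CPM (0.08 ± 0.48), Col3a1 at 11429 and 10571 CPM against 6150 to 21926 CPM, and Col6a3 at 2618 and 2696 CPM against 1108 to 4284 CPM. Timp1, an inhibitor of metalloproteinases, was at 39.7 and 16.7 CPM against 36.7 to 241.5 CPM (1.28 ± 0.71), and its difference was 2.95 without the control low-fat library and 0.32 without the stress low-fat library. Of the genes tied to stress hormones, Nr3c1, the glucocorticoid receptor, was at 237 and 261 CPM against 175 to 212 CPM (-0.39 ± 0.11, adjusted p = 0.212) with no overlap. Nr3c2, the mineralocorticoid receptor, overlapped (0.01 ± 0.35), as did Agt, angiotensinogen (0.17 ± 0.59).

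**Figure D4:**
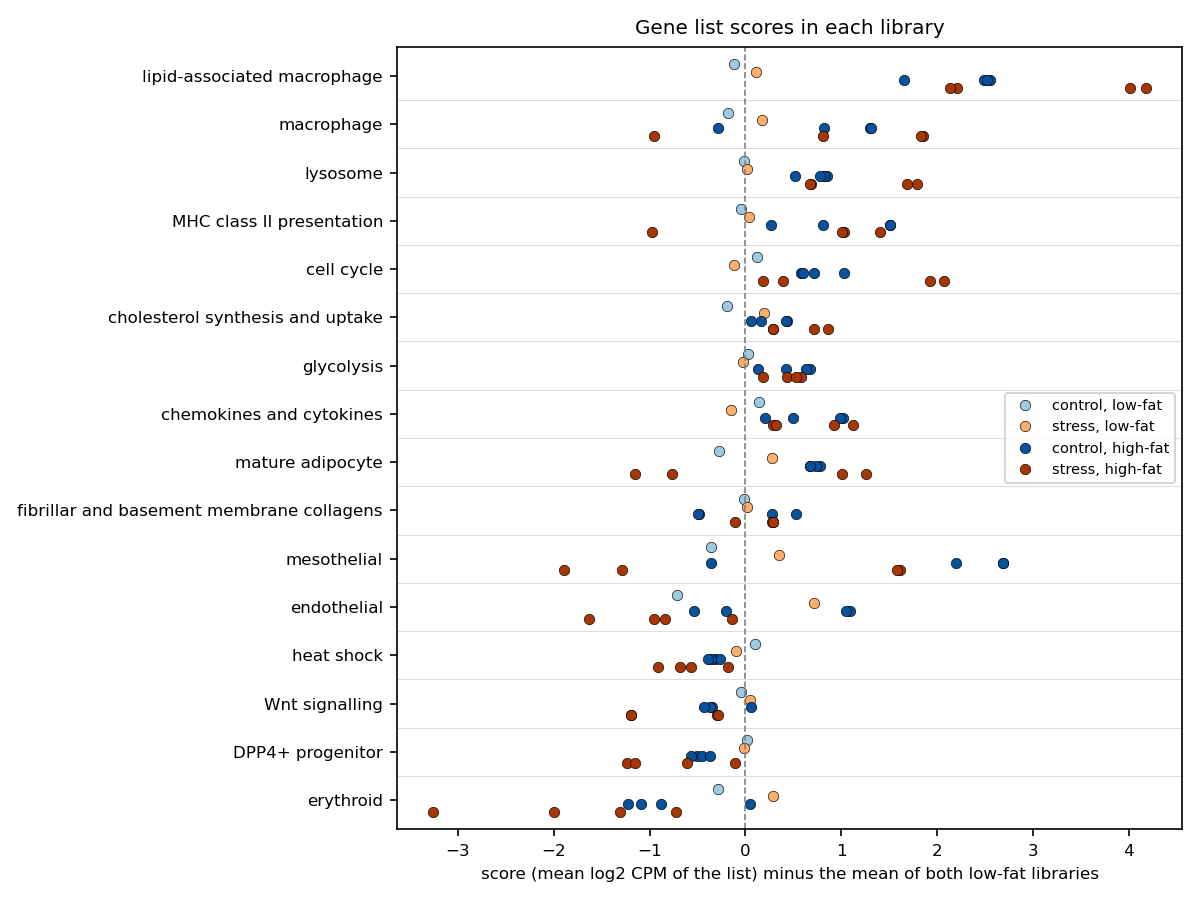
Each row is a gene list and each point a library, placed by its score (mean log2 CPM of the list) minus the mean of both low-fat scores. Both low-fat points lie below all high-fat points for the lipid-associated macrophage, lysosome, cell cycle, glycolysis and chemokine lists, and above them for the heat shock and DPP4+ progenitor lists. The endothelial, mesothelial and mature adipocyte points of the 2 diets overlap.

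Over all 52 lists, both low-fat scores were below all high-fat scores in 6 and above all in 5. The former were the lipid-associated macrophage, lysosome, cell cycle, glycolysis, chemokine and oxidative phosphorylation lists. The latter were the DPP4+ progenitor, heat shock, lymphatic endothelial, renin-angiotensin and insulin signalling lists, of which the lymphatic endothelial list had a positive median (0.09). Markers of other cell types differed among the high-fat libraries themselves. Mesothelial scores were 6.72, 6.23 and 6.72 in control libraries 1, 2 and 3 but 3.68 in control library 4, and 2.14 and 2.74 in stress libraries 3 and 4, against 3.68 and 4.39 on the low-fat diet. Msln, mesothelin, was at 8.33 and 8.71 CPM against 3.47 to 139 CPM, and Muc16 at 7.90 and 9.27 CPM against 3.45 to 52.4 CPM. Red cell genes were negative in 7 of 7 cases, with a median of -1.38 (-0.49 in the control and -2.07 in the stress arm). Their scores overlapped between diets (5.74 and 6.32 against 2.77 to 6.08). Alas2, of haem synthesis, was at 84.1 and 136.5 CPM against 5.82 to 91.6 CPM. The globin Hba-a1 was at 982 and 1528 CPM against 74.7 to 889 CPM. The part of these cell types in the gene differences was not tested.

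The diet difference was also read within each early life treatment, in arms that share no library and hold 1 low-fat library each. Over all genes the sign was the same in 67.0%, with r = 0.175 across genes, and among the 11313 genes with a mean of at least 5 CPM in 72.9%, with r = 0.362. Genes are not independent replicates, so no p is given. The interaction of diet and early life treatment was called in 0 genes by edgeR (0% called). The smallest adjusted p was 1.0, and 547 genes (2.71%) had an unadjusted p below 0.05. DESeq2 called 1, the immunoglobulin segment Igkv10-96. Endothelial markers had opposite medians, 1.46 in the control and -1.56 in the stress arm. Their score was 4.34 in the control low-fat library. Control high-fat libraries 2 and 4 were at 4.52 and 4.85, and the near-identical control libraries 1 and 3 at 6.14 and 6.10. The score was 5.77 in the stress low-fat library and 3.42 to 4.91 in stress high-fat libraries. The epithelial and ovary list also had opposite medians, 2.73 and -1.34. Its score in control high-fat library 4, 0.63, lay below that of the control low-fat library, 1.28. The near-identical pair was at 3.42 and 3.43, and control high-fat library 2 at 1.79. Of the lipid-associated macrophage list 11 of 12 genes were positive in both arms, against 37.9% of all genes, and of the DPP4+ progenitor list 11 of 14 were negative in both, against 29.2%.

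**Figure D5:**
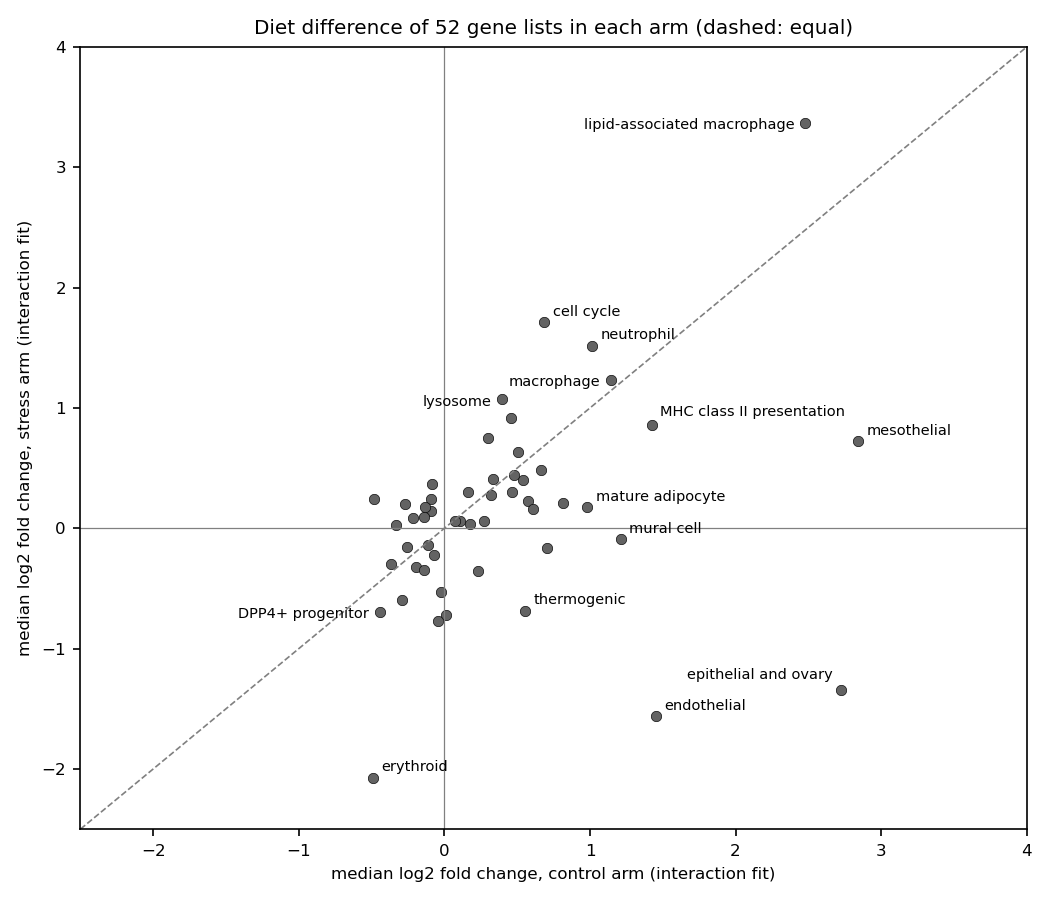
Each point is 1 of 52 gene lists, with its median log2 fold change within the control arm along x and within the stress arm along y, where each arm holds 4 high-fat libraries and 1 low-fat library. The lipid-associated macrophage list lies at 2.48 and 3.37, and the endothelial and the epithelial and ovary lists lie below 0 on the y axis and above 0 on the x axis.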

How the data were processed

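Bulk RNA sequencing libraries were analysed, 1 column of gene counts per library. Per the file headers, the deposited tables hold unnormalised read counts and FPKM for 54532 genes. Tools named by the authors, per the submitters' processing notes, are STAR 2.6.1d, edgeR 3.24.3 and DESeq2 1.20.0, with the build GRCm38. How reads were assigned to genes, with what strand setting and annotation, the sources used here do not state, so reads of overlapping, antisense or near-identical genes may be shared.

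The 8 high-fat and 2 low-fat preadipocyte libraries were fitted in edgeR 4.0.16 (R 4.3.3) with TMM factors, filterByExpr, early life treatment as covariate and a robust quasi-likelihood fit. P-values were adjusted by Benjamini-Hochberg over all 20217 genes tested and called below 0.05. The interaction with early life treatment was fitted in the same libraries and gave the values of each arm. With 1 low-fat library per treatment, each is assumed to vary like the high-fat libraries. DESeq2 1.42.0, limma 3.58.1 on log2(FPKM + 1), other filters and scalings, and fits that leave out libraries were alternatives.

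The comparison, the gene lists and the genes named were chosen with earlier results of these data known. The text names, as not passed, the 10 genes per direction with the smallest p among those at 5 CPM or more in the higher diet group (predicted genes, pseudogenes and receptor segments left out), up to 5 members per list with the smallest p, and 23 genes of interest. One gene that this rule selects is not reported here. Genes of the interaction are not listed, since its smallest adjusted p was 1.0. Promoter sequences are from RefSeq on GRCm38.p6 and the motifs were chosen after the data were seen.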

Additional observations from a re-analysis of the deposited data

Results flagged for a closer look

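In the stress high-fat group of 4 libraries, 108 genes and 52 list scores were checked for 1 library far from the other 3. Chance alone marks about 1 in 20 such groups, and 5 of the 160 quantities were marked. Slc6a2 was at 14.6 CPM in stress library 2 and at 7.99 to 8.45 CPM in the other 3. Plin1 was at 16.3 CPM in stress library 4 against 37.5 to 41.1 CPM. Cd163 was at 26.4 CPM in stress library 2 against 173 to 234 CPM. The collagen score was 9.29 (mean log2 CPM) in stress library 1 against 9.68 to 9.69, and the score of MHC class II presentation was 4.27 in stress library 2 against 6.24 to 6.65.

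Endothelial scores were higher in all 4 control high-fat libraries than in the control low-fat library (mean difference 0.83, with the near-identical pair as 1) and lower in all 4 stress high-fat libraries than in the stress low-fat library (mean difference -1.61). The difference between both was 2.44 and was not tested as a score.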

How the results depend on the processing

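Of 23 alternatives of the diet comparison 10 called any gene. DESeq2 called 611, limma on FPKM 15, the fit without a low-count filter 1 and that without the early life covariate 1. The fit without robust estimation called 2. Leaving out each replicate in turn gave 0 to 62 calls, with the 62 without control library 4. Without stress libraries 3 and 4, chosen after seeing the data, 7 were called. Mmp12 and Slc6a2 were each called in 8 alternatives. With the near-identical pair summed into 1 library 0 were called and the smallest adjusted p was 0.208. For the interaction, DESeq2 called 1 gene, the other alternatives 0, and leaving out each replicate 0 to 0. Causes were not tested.

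Replicate numbers are in the labels, but only number 1 is shared between diets, and same-numbered control and stress high-fat libraries correlated from -0.06 to 0.54, so the numbers were not taken as pairs. With the number as a block 2 genes were called, Mmp12 and F10. In that block fit signs were reversed for Agt (-0.29), Col1a1 (-0.76), Col3a1 (-0.58), Il6 (0.067), Lpl (-0.16), Lyve1 (0.11) and Timd4 (0.52).

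Of 108 genes 95 kept their sign in all alternatives run, and the 13 others were far from the threshold. Signs were reversed in control libraries only for Ccl2 (-0.12), Col3a1 (-0.084), Icam1 (-0.40), Lpl (-0.15) and Timd4 (0.27), and in stress libraries only for Agt (-0.21), Col6a3 (0.017), Il6 (0.44), Ly6a (0.034) and Nr3c2 (-0.25). Nr3c2 was also reversed with the pair summed (-0.027), with no filter (-0.011), with limma (-0.025) and without control libraries 1 and 3 (-0.068), the last also for Col6a3 (0.16). Col1a1 was reversed with limma (-0.092) and, like Col3a1 (-0.081), without stress libraries 3 and 4 (-0.22). Leaving out 1 library gave Agt -0.22 to 0.63, Ccl2 -0.088 to 0.75, Cd163 -0.65 to 0.028, Col1a1 -0.11 to 0.18, Col3a1 -0.063 to 0.58, Col6a3 -0.38 to 0.0096, Icam1 -0.37 to 0.66, Il6 -0.60 to 0.44, Lpl -0.13 to 1.03, Ly6a -0.52 to 0.030, Lyve1 -0.44 to 0.076, Nr3c2 -0.25 to 0.30 and Timd4 -0.84 to 0.31. At these depths 3 counts in a library correspond to 0.129 to 0.167 CPM.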
